A study of Homo sapiens with 8 samples.

Results

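Lipocalin 2 and 9 other antimicrobial proteins that epithelia secrete or hold ready were followed in cultured human urothelial cells after glucose oxidase. The members are LCN2, S100A7, S100A8, S100A9, SLPI, PI3, DEFB1, RNASE7, LTF and CAMP, taken by gene name from the deposited count table, which held a row for all 10 among its 58735 genes. Total RNA came from SV-HUC1, an established line of human urothelial cells immortalised with SV40, in 8 cultures. The treated group was 4 cultures given 20 mU per ml of glucose oxidase, which makes hydrogen peroxide from glucose, for 24 h, and the control group was 4 cultures of the same line without the enzyme. No group had peroxide alone or inactive enzyme. Each group carries replicate numbers 1 to 4, and all cultures came from 1 line, so the spread is that between cultures and not between people. The members were chosen by their function around LCN2, with the treated and control values of this contrast already known, so the members' values in the treatment contrast are a description and support nothing by themselves.

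Epithelia that face microbes make proteins that starve, permeabilise or digest them. Lipocalin 2 binds the siderophores with which bacteria collect iron, and lactoferrin (LTF) binds iron itself. S100A8 and S100A9 join into calprotectin, which withholds zinc and manganese, and S100A7 (psoriasin) binds zinc. SLPI and elafin (PI3) inhibit neutrophil serine proteases through whey acidic protein (WAP) domains and also act on microbes. DEFB1 is a beta-defensin, RNASE7 an antimicrobial ribonuclease known from skin and the urinary tract, and CAMP the precursor of the cathelicidin LL-37. Several of these proteins are also stored in neutrophil granules.

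Library totals ran from 21437267 to 27183692 counts in treated cultures and from 21653952 to 23543702 counts in control cultures. Of 18 urothelial markers 15 passed the filter on low counts, led by KRT8 at 1196 ± 182 CPM in treated and 1804 ± 439 CPM in control cultures (SD, n = 4 each). Of the uroplakins, UPK1B was at 83.3 CPM in treated and 115 CPM in control cultures, and UPK2 at 7.46 and 8.31 CPM. UPK1A failed the filter. So did UPK3A, a uroplakin of the differentiated surface cell, with a mean of 0 CPM in treated and 0.0277 CPM in control cultures. The edgeR fit with a replicate block called 7.51% of all genes tested higher and 6.97% lower. In it 4 of the 15 tested urothelial markers fell, namely KRT13 (log2 change -1.24), KRT19 (-0.87), KRT5 (-0.75) and KRT8 (-0.58), while GATA3 (0.52) and FOXA1 (0.92) rose. The calls of GATA3 and KRT8 were lost with a term that sets replicates 3 and 4 apart from 1 and 2. Of 15 neutrophil markers 13 failed the filter. Their summed level was 8.65 to 11.6 CPM in treated and 9.18 to 13.4 CPM in control libraries, most of it from ITGB2, and CXCR1 had 0 counts in all 8. Of 10 macrophage markers 8 failed the filter and 3 (CD163, C1QA and TYROBP) had 0 counts throughout, while CD74 rose (log2 change 0.48, lost with the same term) and CSF1R fell (-0.90). The part of these cells in the results was not tested.

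Expression was compared with the quasi-likelihood test of edgeR over 17413 genes that passed the filter, with Benjamini-Hochberg adjustment over all of them. CPM values are counts scaled to a common library size, with TMM factors. The edgeR fit with the group as its only term passed 0% of genes in each direction (adjusted p below 0.05), with an unadjusted p below 0.05 for 7.37%. DESeq2 without a block called 0.218% higher and 0.287% lower. With a block for replicate number edgeR called 7.51% higher and 6.97% lower. A gene is written here to have risen or fallen where it passed this blocked fit, and no gene passed without the block in the filtered edgeR fit. In the blocked fit 2 of the 10 members, LCN2 and PI3, rose and 0 fell, 5 did not pass (S100A7, S100A8, S100A9, SLPI and RNASE7), and 3 (DEFB1, LTF and CAMP) were too low to be tested. A fit with 1 term that sets replicates 3 and 4 apart from 1 and 2, called the pair term below, passed 3.72% of genes higher and 3.07% lower, with 1 member (LCN2) higher. LCN2 was also the 1 member higher in DESeq2 without block and in edgeR with no filter and no block, which called 0.0453% of genes higher and 0.0402% lower. LCN2 and PI3 were the 2 members higher in each other blocked fit. These called 6.94% higher and 8.22% lower (DESeq2), 9.62% and 3.07% (total counts), 5.86% and 6.74% (length correction) and 3.31% and 2.45% (no filter).

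LCN2 (ENSG00000148346) was higher in every treated culture than in every control culture. The gene lies on chromosome 9 (128149071 to 128153455, plus strand, GRCh38). It stood at 217, 228, 141 and 150.3 CPM in treated replicates 1 to 4, against 67.5, 66.2, 44.9 and 51.6 CPM in control replicates 1 to 4. The lowest treated library lay well above the highest control library. Treated cultures were thus 3.21, 3.45, 3.15 and 2.91 times the control of the same number, a narrow range across the 4 numbers. The fitted log2 change was 1.67 (SE 0.14, edgeR adjusted p = 2.80e-08) with the block and 1.68 (SE 0.24, edgeR adjusted p = 0.257) without it. In the authors' deposited table LCN2 had the smallest p-value of 36644 rows, with a log2 fold change of 1.67. Of all genes tested, 2.42% had every treated library above every control and 2.60% every treated library below. Because RNA was taken from whole cultures, more LCN2 RNA per cell and more cells that make it cannot be told apart.

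**Figure D1:**
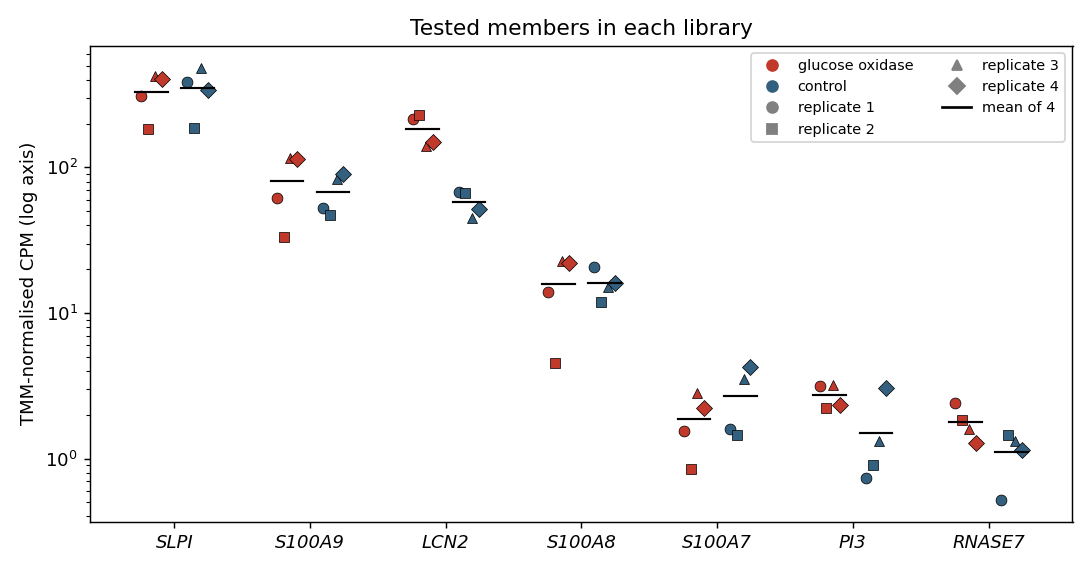
TMM-normalised CPM (log axis) of the 7 members that passed the filter, in each of 4 treated (red, left) and 4 control (blue, right) libraries, with the mean of each group as a line and the replicate number as the marker shape. LCN2 is separated between the groups, at 141 to 228 CPM in treated and 44.9 to 67.5 CPM in control libraries, and the other 6 members overlap.

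Promoter sequence is shown for LCN2, the member that separated the groups, and for S100A9, an abundant member that did not pass. RefSeq windows of 300 bases (250 before the start and 50 after, GRCh38.p14) were at hand for 5 members: LCN2, S100A7, S100A9, RNASE7 and CAMP. Capitals mark matches to the NF-kB consensus, C/EBP (TTGCNNAA), STAT (TTCNNNGAA), AP-1 (TGANTCA) or the antioxidant response element (TGACNNNGC), searched on both strands. The LCN2 window is chr9:128149203-128149502, plus strand, and the S100A9 window chr1:153357604-153357903, plus strand. The whole LCN2 window lies inside the gene span given above, which begins at 128149071. Its RefSeq start thus differs from the start of that span.
LCN2: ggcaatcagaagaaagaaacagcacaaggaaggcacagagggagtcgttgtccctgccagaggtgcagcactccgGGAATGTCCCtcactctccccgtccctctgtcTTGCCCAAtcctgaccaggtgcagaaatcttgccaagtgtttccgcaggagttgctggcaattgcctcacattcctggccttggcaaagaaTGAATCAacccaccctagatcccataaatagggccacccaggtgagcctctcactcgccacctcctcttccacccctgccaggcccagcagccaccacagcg
S100A9: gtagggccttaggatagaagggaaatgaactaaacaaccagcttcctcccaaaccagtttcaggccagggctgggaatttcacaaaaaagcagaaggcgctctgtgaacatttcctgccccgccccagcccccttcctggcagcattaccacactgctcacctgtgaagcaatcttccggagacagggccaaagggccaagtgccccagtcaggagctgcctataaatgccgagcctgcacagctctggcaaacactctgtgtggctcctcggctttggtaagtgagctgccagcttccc
The LCN2 window held an NF-kB match on the minus strand (GGAATGTCCC as read on the plus strand, bases -175 to -166 with the start counted as 0). It also held a C/EBP match (TTGCCCAA, -143 to -136) and an AP-1 match (TGAATCA, -52 to -46), none of which overlap. The RNASE7 window held a C/EBP and an AP-1 match, and the windows of S100A7, S100A9 and CAMP none of the 5. Of 35116 promoter windows of this length, 11.3% held the NF-kB consensus, 10.5% C/EBP, 7.66% STAT, 7.71% AP-1 and 13.3% the antioxidant response element. A match describes letters only.

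LTF, the other iron-binding member, was too low to judge. It had 3, 8, 0 and 0 counts in treated replicates 1 to 4 and 2, 2, 1 and 4 counts in control replicates 1 to 4. A count of 0 in treated replicate 3 allows up to 3 counts, or 0.126 CPM, by counting error alone.

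The S100 members did not move with the enzyme as a group. S100A9 (ENSG00000163220, chromosome 1, 153357854 to 153361027) was at 61.1, 33.4, 115 and 114 CPM in treated replicates 1 to 4, against 52.6, 47.0, 82.9 and 89.5 CPM in control replicates 1 to 4. Both groups span a wide range and overlap, with replicates 3 and 4 high in each. Its log2 change was 0.14 (SE 0.15, edgeR adjusted p = 0.590) with the block and 0.25 (SE 0.38, adjusted p = 0.850) without. The blocked value was 0.363 without replicate 2, 0.0306 without replicate 3, 0.0692 without replicate 4, 0.254 with total counts and 0.321 with length correction, and none of these passed. S100A8 (ENSG00000143546, chromosome 1, 153390032 to 153391188), its calprotectin partner, was at 14.02, 4.54, 22.9 and 22.2 CPM in treated replicates 1 to 4, against 20.6, 11.95, 15.2 and 16.2 CPM in control replicates 1 to 4. The lowest and the highest values were both in treated libraries. Treated cultures were at 0.680 and 0.380 times the control in replicates 1 and 2 and at 1.51 and 1.37 times in replicates 3 and 4, so the direction turned between these pairs. The fitted log2 change was -0.19 (SE 0.21, edgeR adjusted p = 0.610) with the block and -0.01 (SE 0.41, adjusted p = 0.998) without, and without replicate 2 the blocked value was 0.179. Per length, S100A9 was 7.60, 12.8, 8.79 and 8.96 times S100A8 in treated replicates 1 to 4 and 4.44, 6.86, 9.53 and 9.66 times in control replicates 1 to 4 (ratio of the authors' FPKM).

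S100A7 (ENSG00000143556, chromosome 1, 153457744 to 153460701) rested on few counts. It was at 1.55, 0.844, 2.81 and 2.24 CPM in treated replicates 1 to 4, against 1.60, 1.45, 3.54 and 4.23 CPM in control replicates 1 to 4. Each treated culture was below the control of its number, which held for 17.1% of all genes tested, but the groups overlap. The log2 change was -0.52 (SE 0.27, edgeR adjusted p = 0.209) with the block and -0.53 (SE 0.45, adjusted p = 0.750) without. Its near-identical copy S100A7A had 2 counts in treated and 5 in control libraries in all, so reads shared between the 2 are a limit on this value.

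SLPI, the most abundant member, stayed within the spread between cultures. SLPI (ENSG00000124107, chromosome 20, 45252239 to 45254564) was at 307, 183, 425 and 404 CPM in treated replicates 1 to 4, against 384, 186, 485 and 339 CPM in control replicates 1 to 4. Replicate 2 was the lowest in both groups. The log2 change was -0.07 (SE 0.16, edgeR adjusted p = 0.811) with the block and -0.08 (SE 0.35, adjusted p = 0.951) without, and its sign turned under total-count scaling (0.0387 with the block).

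PI3 (ENSG00000124102, chromosome 20, 45174876 to 45176544), which encodes elafin and lies near SLPI, rose at a low level. It had 93, 55, 76 and 60 counts in treated replicates 1 to 4, against 17, 23, 24 and 63 counts in control replicates 1 to 4. As CPM these were 3.14, 2.21, 3.19 and 2.31 in treated cultures and 0.735, 0.904, 1.33 and 3.03 in control cultures. Control 4 lay inside the treated range, and the other 3 controls lay below it. The log2 change was 1.00 (SE 0.33, edgeR adjusted p = 0.0385) with the block and 0.86 (SE 0.43, adjusted p = 0.677) without. The call was lost with the pair term (edgeR adjusted p = 0.0844). It was also lost without replicate 1 (log2 change 0.687, edgeR adjusted p = 0.245), without replicate 2 (0.927, adjusted p = 0.118) and without replicate 3 (0.911, adjusted p = 0.117), and without replicate 4 the log2 change was 1.53 (adjusted p = 0.0122).

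Of RNASE7, DEFB1 and CAMP only RNASE7 could be tested. RNASE7 (ENSG00000165799, chromosome 14, 21042226 to 21044234) had 71, 46, 38 and 33 counts in treated replicates 1 to 4, against 12, 37, 24 and 24 counts in control replicates 1 to 4. These were 2.39, 1.85, 1.60 and 1.27 CPM in treated cultures and 0.519, 1.45, 1.33 and 1.15 CPM in control cultures. Every treated culture was above the control of its number, as in 16.9% of all genes tested, and treated 4 lay below control 2 and control 3. Most of the difference was in replicate 1, at 4.61 times the control, while replicates 2 to 4 were at 1.27, 1.2 and 1.1 times. The log2 change was 0.70 (SE 0.35, edgeR adjusted p = 0.192) with the block and 0.68 (SE 0.37, adjusted p = 0.681) without, and without replicate 1 the blocked value was 0.267. NDRG2, on the opposite strand, overlaps RNASE7, and no strand setting of the counting is stated in the sources at hand, so reads of the 2 genes may not be told apart.

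DEFB1 and CAMP were too low to judge. DEFB1 (ENSG00000164825) had 4, 0, 1 and 2 counts in treated replicates 1 to 4, against 19, 3, 4 and 3 in control replicates 1 to 4. Most of the control counts stood in control 1, and the other 3 controls overlapped the treated libraries. CAMP (ENSG00000164047) had 7, 1, 1 and 0 counts in treated replicates 1 to 4 and 7, 2, 3 and 0 in control replicates 1 to 4. With no filter on low counts and the replicate block, DEFB1 had a log2 change of -2.18 (SE 1.00, edgeR adjusted p = 0.254) and CAMP one of -0.85 (SE 1.40, adjusted p = 0.896).

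**Figure D2:**
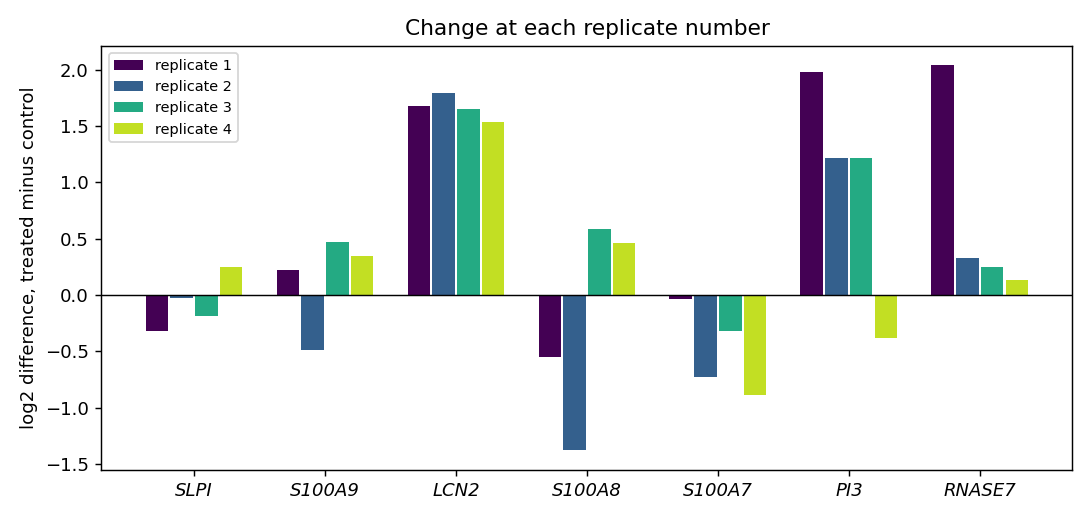
Difference in log2 CPM (prior count 2), treated minus control of the same replicate number, for the 7 tested members; each bar is 1 replicate number. LCN2 lies between 1.54 and 1.79 in all 4, PI3 runs from -0.38 to 1.98, and S100A8 is at -0.55 and -1.38 in replicates 1 and 2 but 0.59 and 0.46 in replicates 3 and 4.

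Per length, the members spanned a wide range of levels. Their order by mean FPKM in treated cultures was SLPI (546 ± 190), S100A9 (139 ± 70.8), LCN2 (113 ± 25.9), S100A8 (15.7 ± 8.56), PI3 (4.63 ± 0.95), S100A7 (3.44 ± 1.61) and RNASE7 (1.17 ± 0.31; SD, n = 4). In control cultures it was SLPI (581 ± 219), S100A9 (117 ± 39.1), LCN2 (35.4 ± 5.999), S100A8 (15.7 ± 3.53), S100A7 (5.03 ± 2.67), PI3 (2.58 ± 1.83) and RNASE7 (0.734 ± 0.27; SD, n = 4). S100A9 and LCN2 were apart in every control library but not in treated ones, where LCN2 had the higher FPKM in replicates 1 and 2 (134 against 104, and 137 against 55.6) and S100A9 in replicates 3 and 4. S100A7 and PI3 overlapped in both groups. SLPI in control cultures had a higher mean FPKM than 99.7% of the genes tested, S100A9 than 97.6% and LCN2 than 91.0%. LCN2 made up 35.7, 50.3, 19.8 and 21.6% of the summed CPM of the 10 members in treated replicates 1 to 4, against 12.8, 21.0, 7.07 and 10.2% in control replicates 1 to 4. The control share of replicate 2 was above the treated share of replicate 3.

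**Figure D3:**
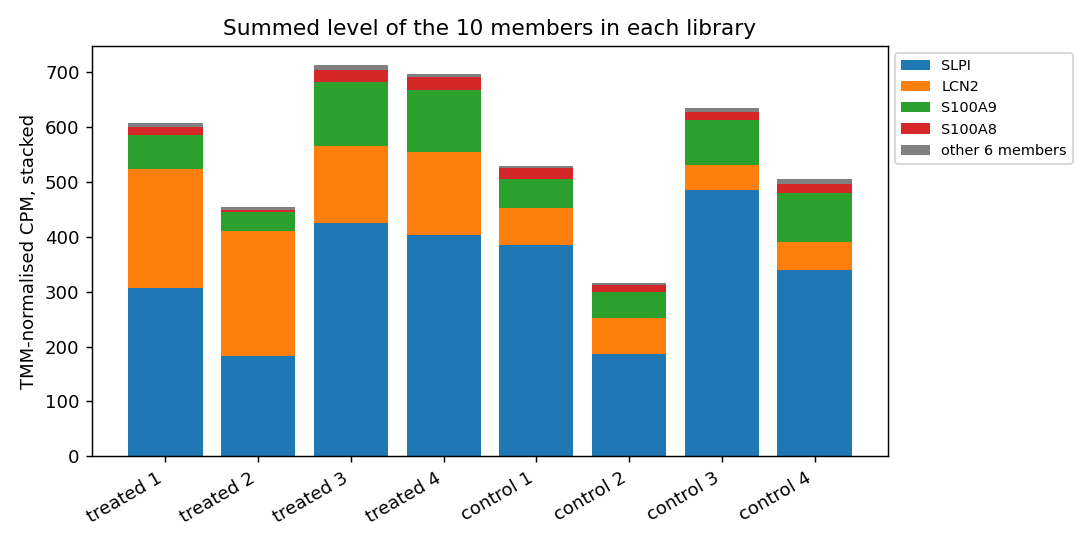
TMM-normalised CPM of the 10 members stacked in each library, treated libraries on the left and control libraries on the right. The SLPI segment is the largest in every library except treated 2, and the LCN2 segment runs from 141 to 228 CPM in treated and from 44.9 to 67.5 CPM in control libraries.

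The libraries of replicates 3 and 4 stood apart from those of replicates 1 and 2 in both groups, a division seen in the expression data that no label gives. The division was taken from these expression data, so the shares and adjusted p-values of this paragraph describe it and do not test it. Fitted over the same genes with the treatment as a covariate, 22.8% of genes were higher in replicates 3 and 4 and 23.8% lower. Of the 7 tested members 3 were higher (S100A7, S100A9 and SLPI) and 1 was lower (LCN2). S100A9 averaged 115 CPM in treated replicates 3 and 4 and 47.3 CPM in treated replicates 1 and 2, and the corresponding control means were 86.2 and 49.8 CPM (log2 difference 1.03, SE 0.18, edgeR adjusted p = 0.000229). S100A7 differed by 1.21 (SE 0.26, edgeR adjusted p = 0.00127) and SLPI by 0.64 (SE 0.23, edgeR adjusted p = 0.0267). LCN2 ran the other way, at 146 CPM in treated replicates 3 and 4 and 222 CPM in treated replicates 1 and 2, with control means of 48.2 and 66.8 CPM (log2 difference -0.54, SE 0.14, edgeR adjusted p = 0.00446). With total counts in place of TMM, LCN2 (-0.88), S100A7 (0.87) and S100A9 (0.70) were still called and SLPI was not (0.31, edgeR adjusted p = 0.213). The SLPI call was also lost without treated replicate 2, 3 or 4 or control replicate 2 or 3 (0.485 to 0.648). S100A8 (0.61, edgeR adjusted p = 0.105), PI3 (0.64, adjusted p = 0.125) and RNASE7 (-0.17, adjusted p = 0.703) did not pass. S100A8 passed without control replicate 1 (0.931, edgeR adjusted p = 0.0141) or control replicate 4 (0.766, adjusted p = 0.0425), and PI3 without treated replicate 1 (0.937, adjusted p = 0.0375). In the control libraries alone PI3 was higher in replicates 3 and 4 (1.43, SE 0.49, edgeR adjusted p = 0.0343), and the differences of LCN2 (-0.46, SE 0.20, adjusted p = 0.0840) and SLPI (0.53, SE 0.32, adjusted p = 0.203) did not pass there.

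Whether the treatment effect itself differed between the pairs was tested as an interaction, which called 0.212% of genes higher in replicates 3 and 4 and 0.0172% lower. None of the 7 tested members passed. With the replicate block, which called 0.735% higher and 0.167% lower, S100A8 passed (difference of log2 changes 1.46, SE 0.29, edgeR adjusted p = 0.00722; without the block 1.32, SE 0.53, adjusted p = 0.551). Without treated replicate 1, the fit without the block gave S100A8 a difference of 2.45 (edgeR adjusted p = 0.00722), with the lone library of that cell assumed to vary like the others. Without treated replicate 2 it was 0.753 (edgeR adjusted p = 0.588). For LCN2 the difference of log2 changes was -0.14 (SE 0.26, edgeR adjusted p = 0.937). Without the block PI3 differed by -1.38 (SE 0.59, edgeR adjusted p = 0.572), of similar size to S100A8 but of the other sign. With the block the PI3 difference was -1.30 (SE 0.58, edgeR adjusted p = 0.373). Without the block RNASE7 differed by -0.88, S100A7 by -0.29, S100A9 by 0.48 and SLPI by 0.23.

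Genes of the routes that induce these proteins, with some that hold these routes back, were compared as a list. Interleukin 17 and interleukin 1 act through NF-kB and its cofactor IkB-zeta (NFKBIZ), with C/EBP factors, on LCN2 and several S100 genes. Of 27 genes of this list 21 were tested, of which 12 rose and 2 fell, with a median log2 change of 0.48 against -0.00681 over all genes tested. In the same blocked fit 7.51% of all genes tested rose and 6.97% fell. These shares stand beside the counts of every list and group of neighbours below. IL1B was at 8.04 ± 3.03 CPM in treated and 1.62 ± 0.52 CPM in control cultures (SD, n = 4 each; log2 change 2.26, SE 0.24, edgeR adjusted p = 9.52e-07). IL1A, the other interleukin 1, rose by a log2 change of 2.83, and TNFAIP3, a brake on NF-kB, by 1.29. The change of IL1A was larger in replicates 3 and 4 than in 1 and 2 by 3.57 on the log2 scale (edgeR adjusted p of the difference = 0.000445), the 1 gene of the list with a called difference. NFKBIZ, named here after its values were seen, was at 29.3 ± 7.03 CPM in treated and 17.6 ± 6.53 CPM in control cultures (SD, n = 4 each; log2 change 0.77, SE 0.18, edgeR adjusted p = 0.00517). The receptor chains IL17RE (-0.78) and IL17RC (-0.58) fell, and IL17RA (0.26, edgeR adjusted p = 0.271), CEBPB (0.38, adjusted p = 0.169) and CEBPD (0.07, adjusted p = 0.812), also named after their values were seen, did not pass. Of the ligands IL36A and IL36B had 0 counts, and IL36G and IL17C failed the filter. With the pair term 9 genes of the list were higher and 2 lower.

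The signalling list around interleukin 6, interleukin 20 and STAT3, a further route to epithelial defence genes, had 16 tested genes of 17, of which 6 rose and 0 fell (median log2 change 0.42). IL24 rose by a log2 change of 1.67 (SE 0.18, edgeR adjusted p = 9.52e-07), IL6 by 1.24 and OSMR, the oncostatin M receptor, by 0.76. The change of IL6 was larger in replicates 3 and 4 than in 1 and 2 by 1.66 (edgeR adjusted p of the difference = 0.0345), the 1 called difference in this list. The receptor IL22RA1 was at 5.83 ± 0.41 CPM in treated and 4.05 ± 0.61 CPM in control cultures and did not pass (SD, n = 4 each; edgeR adjusted p = 0.0724). With the pair term 4 of these genes were higher. Interleukin 1 and interleukin 6 genes are known to have differed between these groups from earlier results of the same data.

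**Figure D4:**
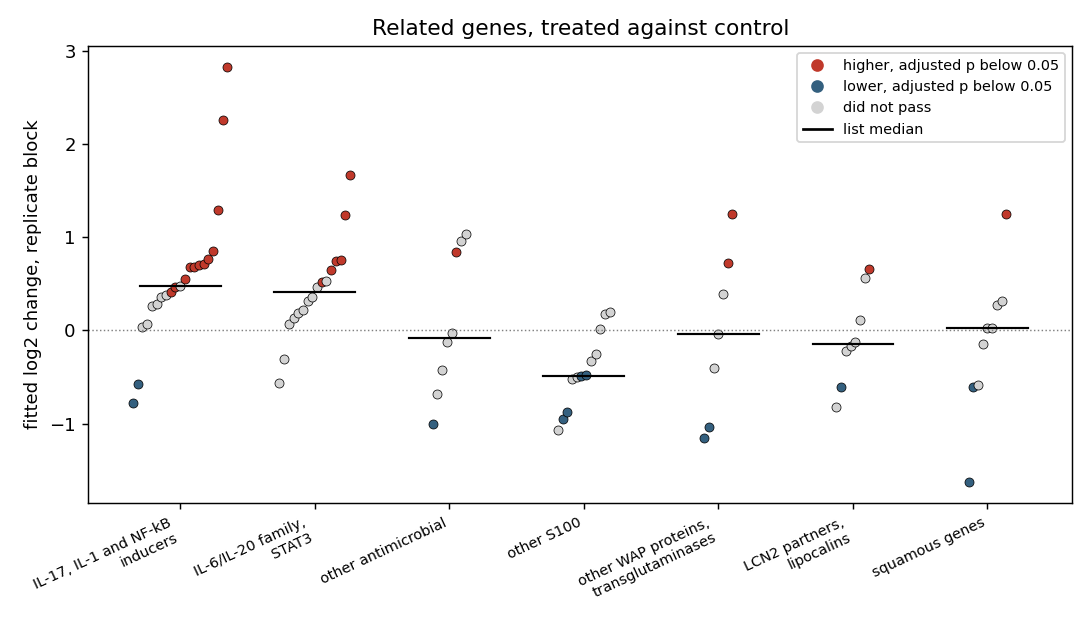
Fitted log2 change, treated over control, from the edgeR fit with the replicate block for the tested genes of 7 lists, with the list median as a line; red genes rose, blue genes fell and grey genes did not pass an adjusted p of 0.05. In the list labelled as interleukin 17, interleukin 1 and NF-kB inducers, which also holds brakes such as TNFAIP3, 12 of 21 rose. In the list of other S100 genes 4 of 12 fell and 0 rose. Over all genes tested 7.51% rose and 6.97% fell.

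Among other antimicrobial genes few were expressed. Of 32 listed 8 were tested, of which PTX3 rose and ANG fell, with 7 of the 32 at 0 counts in every library. PTX3, a pentraxin that marks microbes for uptake, was at 11.4 ± 1.46 CPM in treated and 7.10 ± 4.22 CPM in control cultures (SD, n = 4 each; log2 change 0.84, edgeR adjusted p = 0.0177). ANG, angiogenin of the ribonuclease A family, was at 1.45 ± 0.88 CPM in treated and 3.45 ± 2.92 CPM in control cultures (log2 change -1.0, edgeR adjusted p = 0.0321). Both calls were lost with the pair term (adjusted p = 0.0569 for PTX3 and 0.0653 for ANG). CCL20 was at 5.72 ± 4.24 CPM in treated and 2.29 ± 1.15 CPM in control cultures and did not pass (log2 change 1.03, edgeR adjusted p = 0.0930). Its change was larger in replicates 3 and 4 than in 1 and 2 by 3.28 (edgeR adjusted p of the difference = 0.00852), the 1 called difference in this list. Lysozyme (LYZ) had 8 counts in treated and 0 in control libraries. The inducible beta-defensin DEFB4A had 36 counts in treated and 16 in control libraries, and shares its sequence with DEFB4B. Of the 13 genes of the ribonuclease A family list 2 were tested, ANG, already counted above, and the ribonuclease inhibitor RNH1. ANG fell, and RNH1 did not pass (log2 change -0.11, edgeR adjusted p = 0.67).

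Of 17 other S100 genes 12 were tested, of which S100A13, S100A2, S100A4 and S100A6 (the last named after its value was seen) fell, 0 rose and 8 did not pass, with a median log2 change of -0.49. S100A2, a calcium-binding protein of basal epithelial cells, was at 228 ± 153 CPM in treated and 449 ± 321 CPM in control cultures (SD, n = 4 each; log2 change -0.95, SE 0.17, edgeR adjusted p = 0.000507). S100A13 changed by -0.88, S100A6 by -0.49 and S100A4 by -0.48. S100A4 and S100A6 lost their calls with the pair term and under total counts. Total counts moved the median of all genes to 0.101 and that of this list to -0.37, with 2 genes lower.

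Around SLPI and PI3, the WAP and elastase list had 7 tested genes of 19, of which 2 rose and 2 fell. Transglutaminase 1 (TGM1), which joins proteins of the cornified envelope, was at 9.94 ± 5.94 CPM in treated and 4.33 ± 2.90 CPM in control cultures (SD, n = 4 each; log2 change 1.25, SE 0.19, edgeR adjusted p = 0.000106). TGM2, which cross-links elafin among other substrates, rose by 0.72. WFDC3 (-1.04) and WFDC6 (-1.16) fell, both at below 3 CPM, and the WFDC6 call was lost with the pair term (edgeR adjusted p = 0.0508). WFDC2, an abundant WAP protein, was at 129 ± 18.5 CPM in treated and 132 ± 10.4 CPM in control cultures (edgeR adjusted p = 0.909). Under total counts 3 of these genes were higher and 0 lower. The protease targets ELANE, PRTN3 and CTSG had 0, 2 and 2 counts in treated libraries and 1, 2 and 1 in control libraries.

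Of 19 partners and relatives of lipocalin 2, 8 were tested, with 1 higher and 1 lower. MMP9, a gelatinase that lipocalin 2 binds, was at 4.19 ± 0.52 CPM in treated and 2.64 ± 0.42 CPM in control cultures (SD, n = 4 each; log2 change 0.66, edgeR adjusted p = 0.0498). BDH2, an enzyme tied to a mammalian siderophore, was at 26.7 ± 13.998 CPM in treated and 37.1 ± 10.9 CPM in control cultures (log2 change -0.61, edgeR adjusted p = 0.0178). Both calls were lost with the pair term. The lipocalin 2 receptor SLC22A17 was at 7.79 ± 1.89 CPM in treated and 8.65 ± 1.07 CPM in control cultures (SD, n = 4 each, edgeR adjusted p = 0.558), and the receptor LRP2 failed the filter. Of 15 receptors and other binding partners of the members' products 10 were tested, with LRP1 (0.57) and PLSCR1 (0.47) higher and 0 lower, both of them lost with the pair term.

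Squamous genes, which in skin are induced together with S100A7, S100A8, S100A9 and PI3, were a further list. Of 16 listed 9 were tested, of which TGM1 rose, involucrin (IVL) and KLK5 fell and 6 did not pass, with a median log2 change of 0.03. IVL was at 1.35 ± 0.18 CPM in treated and 4.54 ± 2.15 CPM in control cultures (SD, n = 4 each; log2 change -1.63, SE 0.28, edgeR adjusted p = 0.000383), and KLK5 changed by -0.61.

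Neighbouring genes within 100 kb were compared next. Of 8 tested neighbours of LCN2, DNM1 rose (log2 change 0.53, edgeR adjusted p = 0.0246, lost with the pair term) and 0 fell. The nearest, C9orf16, was at 56.9 CPM in treated and 61.0 CPM in control cultures (edgeR adjusted p = 0.704), and PTGES2 at 149 CPM in treated and 149 CPM in control cultures (adjusted p = 0.996). Among 5 neighbours of RNASE7, METTL17 (-0.54) and SLC39A2 (-0.99) fell. Near LTF, CCRL2 fell (-2.11) at a low level. Of 6 tested neighbours of S100A7, S100A6 (-0.49) and S100A4 (-0.48) fell. Of 3 tested neighbours of SLPI, the member PI3 rose (1.00). The calls of S100A6, S100A4 and PI3 were lost with the pair term.

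The protein-coding genes whose log2 CPM followed LCN2 most closely over the 8 libraries, among 10880 with a mean of at least 5 CPM, were FZD10 (Pearson r = 0.976), PMEPA1 (0.974), XPOT (0.971), SOWAHC (0.966) and SEL1L3 (0.965). For SLPI they were RALA (0.985), TIPIN (0.974), PEX7 (0.974), LTV1 (0.967) and GNL3 (0.963). For S100A9 they were DIXDC1 (0.978), CSNK1G3 (0.967), PLEK2 (0.961), MPZL2 (0.960) and POC5 (0.960), and for S100A8 CCDC181 (0.981), ZNF141 (0.972), SDCBP2 (0.962), KRR1 (0.955) and RTN2 (0.953). These genes share the treatment and the division of the libraries with the members, and r is given as a description over 8 libraries.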

How the data were processed

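RNA sequencing of 8 SV-HUC1 cultures, 4 treated and 4 control, was analysed from the authors' deposited tables. The submitters' processing notes name DESeq2 1.20.0, HISAT2 2.0.5 and featureCounts 1.5.0-p3 as the authors' tools, with GRCh38.p13 as build. The deposited counts are raw whole numbers per gene. The deposited FPKM values are the authors' and were used only to set levels of different genes side by side, per the summed exon length in the table. The authors' deposited comparison table gives a mean normalised signal per group, a log2 fold change, a p-value and an adjusted p-value. Its 24 per-sample columns were not used.

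Counts were tested with edgeR 4.0.16 (TMM, filterByExpr at a minimum count of 10, quasi-likelihood test, Benjamini-Hochberg adjusted p below 0.05) under R 4.3.3. DESeq2 1.42.0 was an alternative. The script was tested on simulated data. The replicate numbers were taken as pairs because same-numbered libraries deviated together from their group means (correlations across genes of 0.532, 0.678, 0.590 and 0.503, all over 0.1). Differently numbered libraries inside replicates 1 and 2 (0.468 and 0.443) or 3 and 4 (0.453 and 0.652) were also over that minimum, so it does not separate pairing by number from this division, and a pair term (replicates 3 and 4 set apart from 1 and 2) therefore stands beside the block. Libraries of a group differed beyond sampling noise in every case (chi-square of at least 10.9 per degree of freedom). The labels do not say that cultures were separate beyond their replicate numbers, so p-values set a difference against the spread between these samples only. In the blocked fit this is the spread left after differences between replicate numbers are taken out.

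The members and lists were chosen with earlier results of these data known. The named genes were, in each list, up to 3 in each direction of smallest adjusted p in the blocked fit, called neighbours within 100 kb, and the 5 genes most correlated with each member of at least 5 CPM. Genes named although they did not pass, or were not tested, were chosen after their values were seen. Limits at 0 counts cover counting error only.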

Additional observations from a re-analysis of the deposited data

Results flagged for a closer look

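S100A8 moved in opposite directions in the pairs of cultures. Treated libraries were below their controls in replicates 1 and 2 and above them in replicates 3 and 4. The difference of log2 changes was 1.32 and did not pass in edgeR without the replicate block (adjusted p = 0.551), and it passed with the block (1.46, edgeR adjusted p = 0.00722). No other tested member had such a pattern. A Dixon rule (gap to the next value over the range) flagged no library within its group of 4 for the 7 tested members. With 4 values that rule flags only an extreme gap, so it does not show that single libraries had little weight. Without the block PI3 changed by 0.862, and by 1.46 when control replicate 4 was left out. The S100A8 difference of 1.32 was 0.753 without treated replicate 2. RNASE7 changed by 0.676 without the block, and by 0.453 when control replicate 1 was left out. LCN2 stayed at 1.57 to 1.78 with single libraries left out.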

How the results depend on the processing

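The number of members called higher was 0 in the edgeR fit without block. It was 2 with the replicate block, also with DESeq2-type size factors, total counts, no filter, the length correction or DESeq2, and 1 with the pair term, with DESeq2 without block and with no filter without block. Leaving out libraries or replicate numbers gave 0 to 2. LCN2's log2 change of 1.68 was past the threshold at 1.67 with the block and 1.67 with the pair term. It was so at 1.65 (DESeq2-type size factors), 1.78 (total counts), 1.65 (DESeq2), 1.69 (no filter) and 1.81 (length correction) with the block, and at 1.66 (DESeq2) and 1.71 (no filter) without it. Left-out libraries gave 1.57 to 1.78 (edgeR adjusted p 0.320 to 0.895) and left-out replicate numbers with the block 1.64 to 1.71. The replicate block added the calls of LCN2 and PI3 and of no other member. Signs turned for S100A8 (0.0373 with total counts, 0.0254 with no filter, -0.232 to 0.316 with libraries left out, -0.462 to 0.179 with replicate numbers left out of the block) and SLPI (0.0411 with total counts, 0.0387 with total counts and block, 0.107 with length correction, -0.28 to 0.136 with libraries left out, -0.183 to 0.0265 with replicate numbers left out of the block). Both lay within 1 SE of 0 without the block, and the cause was not tested.

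For the difference of effects, LCN2 turned to 0.0449 with total counts, S100A7 ranged from -0.633 to 0.309 and SLPI from -0.363 to 0.743 with libraries left out. The members called higher were 1 with the block and 0 to 1 with libraries left out. Between replicates 3 and 4 and replicates 1 and 2, controls alone gave 0 members lower, -0.0462 for S100A8 and 0.331 for RNASE7. In the fit over both groups RNASE7 was at -0.168 and ranged from -0.417 to 0.0434 with libraries left out. Leaving out libraries in these comparisons was chosen after seeing the data. DEFB1, LTF and CAMP had too few counts to be judged in these libraries.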
